A study of Mus musculus with 10 samples.

Results

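Hemoglobin is built from alpha globin and beta globin chains, each holding a heme, the iron-carrying ring that binds oxygen. Described here are 6 genes of that system: the alpha globins Hba-a1 and Hba-a2, the beta globins Hbb-bs and Hbb-bt, and the 5-aminolevulinate synthases Alas2 and Alas1. They were chosen by name from the 17983 genes listed in any of the 10 libraries, with earlier results of these data known. Alas1 was included to set the general enzyme beside the erythroid one. All 6 were listed in every library, and all 6 passed the filter on low values, which asked for at least 10 normalised counts in 2 or more libraries.

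RNA was sequenced from cells of mouse back skin labelled as keratinocytes, released by trypsin after the epidermis had been separated from the dermis with dispase. Mut_AOO (3 libraries) and Ctrl_AOO (3 libraries) came from skin rubbed with a 4 to 1 mixture of acetone and olive oil, and Mut_H2O (2 libraries) and Ctrl_H2O (2 libraries) from skin rubbed with water. Rubbing was done 2 times a day for 3 days, and collection was on day 5. Mut mice are labelled Gsdma1KO/KO;Gsdma3fx/fx;K14-Cre: a Gsdma1 knockout with floxed Gsdma3 alleles and a Cre recombinase under the keratin 14 promoter, which is active in basal keratinocytes. Ctrl mice are labelled wild type, and the age of the mice is not given. Whether every library comes from a separate animal is not stated, and the p-values therefore reflect variation between libraries, which may be partly technical.

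The first step of heme synthesis joins glycine to succinyl-CoA in the mitochondrion and has a pair of enzymes. Alas1 is made in most cells and is repressed by heme, while Alas2 is made in the erythroid lineage, where GATA1 drives its gene and iron controls its translation. Reticulocytes, the young red cells of the blood, have lost their nucleus but still hold globin and Alas2 mRNA. The epidermis has no blood vessels of its own, and those of the skin lie in the dermis.

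Recovered depth was 15914663 to 21812292 reads per library. Gsdma3, the floxed gene, had normalised read counts of 0 to 0.901 in Mut_AOO and 63.1 to 177 in Ctrl_AOO, and 0 to 2.64 in Mut_H2O and 62.1 to 283 in Ctrl_H2O. Gsdma, the annotation's symbol for Gsdma1, had 261 to 846 in Mut_AOO and 535 to 733 in Ctrl_AOO, and 170 in both Mut_H2O libraries against 199 to 527 in Ctrl_H2O; which bases the knockout removes is not given, so its level does not check the label. The keratinocyte label fitted the levels of the basal keratin Krt5, from 211592 to 397657 in the 10 libraries. The sum of 4 Y-linked genes was 3592.5 to 4975.9 in the 6 olive oil/acetone libraries and 0 in all 4 water libraries, so the treatment and Y-linked RNA divide the libraries in the same way and cannot be told apart in any comparison of olive oil/acetone with water. Ctrl_H2O library 2 lay among the olive oil/acetone libraries on the first principal component of all genes and had a sum of 11554 over 9 hair shaft and inner root sheath markers, against at most 2587 in any other library.

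In the GENCODE annotation of GRCm38, Hba-a1 lies on chromosome 11 at 32283511 to 32284465 and Hba-a2 at 32296489 to 32297298, both on the plus strand. Hbb-bs lies on chromosome 7 at 103826534 to 103828096 and Hbb-bt at 103812524 to 103813996, both on the minus strand. Alas2 lies on chromosome X at 150547375 to 150570638 on the plus strand, and Alas1 on chromosome 9 at 106233455 to 106248654 on the minus strand. The promoters are shown as a description of the genes, and their part in the RNA levels was not tested. Each is the 250 bases before a RefSeq start site (GRCm38.p6), written 5′ to 3′ on the strand of the gene. Capitals mark 4 motifs. The core of GATA factor motifs is GATAA, or TTATC where it lies on the opposite strand. The core of KLF1 motifs is CACCC, or GGGTG on the opposite strand. The box bound by NF-Y is CCAAT, or ATTGG on the opposite strand, and the TATA box was searched as TATAA on the strand of the gene only. No marked motif overlaps another.

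Hba-a2 promoter, chr11:32296242-32296491, plus strand: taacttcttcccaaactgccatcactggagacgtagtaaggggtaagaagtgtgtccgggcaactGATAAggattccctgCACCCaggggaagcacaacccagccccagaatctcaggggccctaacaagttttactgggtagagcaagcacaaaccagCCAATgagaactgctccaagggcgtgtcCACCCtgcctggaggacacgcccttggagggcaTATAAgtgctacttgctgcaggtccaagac
Hbb-bs promoter, chr7:103827929-103828178, minus strand: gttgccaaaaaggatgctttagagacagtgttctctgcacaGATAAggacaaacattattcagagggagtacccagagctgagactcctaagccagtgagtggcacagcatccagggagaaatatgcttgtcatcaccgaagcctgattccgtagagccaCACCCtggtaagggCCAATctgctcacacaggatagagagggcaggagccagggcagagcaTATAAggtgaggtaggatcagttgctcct
Hbb-bt promoter, chr7:103813924-103814173, minus strand: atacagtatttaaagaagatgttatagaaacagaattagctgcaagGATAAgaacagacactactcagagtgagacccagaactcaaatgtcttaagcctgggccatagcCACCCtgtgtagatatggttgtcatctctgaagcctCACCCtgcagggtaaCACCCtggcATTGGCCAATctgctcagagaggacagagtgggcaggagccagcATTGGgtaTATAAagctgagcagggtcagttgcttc
Alas2 promoter, chrX:150547167-150547416, plus strand: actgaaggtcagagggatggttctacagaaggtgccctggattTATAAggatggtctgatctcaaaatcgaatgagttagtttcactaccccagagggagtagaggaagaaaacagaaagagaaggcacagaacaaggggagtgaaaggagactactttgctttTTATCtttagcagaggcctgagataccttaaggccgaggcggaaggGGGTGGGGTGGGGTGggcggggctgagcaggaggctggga
Alas1 promoter, chr9:106247955-106248204, minus strand: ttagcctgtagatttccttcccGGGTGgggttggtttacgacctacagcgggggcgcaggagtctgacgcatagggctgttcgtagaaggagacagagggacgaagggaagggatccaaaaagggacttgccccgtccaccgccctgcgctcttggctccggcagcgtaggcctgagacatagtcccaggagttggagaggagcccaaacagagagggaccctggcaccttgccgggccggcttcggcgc

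GATAA stood in the windows of all 4 globins and of Alas2, and in neither window of Alas1. In the globins it lay between positions -209 and -178 from the start, followed by at least 1 match each of CACCC and of the CCAAT box, and by a TATA box between -30 and -23. The Hba-a1 window matched that of Hba-a2 at 247 of 247 aligned bases. Alas2 held its GATAA match on the opposite strand at -86 to -82, and 3 adjoining CACCC matches on that strand between -40 and -26, with no CCAAT. Its TATAA match lay at -207 to -203, far from the place of the TATA boxes of the globins. The window of Alas1 printed here held 1 CACCC match and no other motif, and so did that of its other RefSeq start. Among 32851 windows of the same length in the RefSeq table, GATAA was in 22.6%, CACCC in 52.0%, CCAAT in 33.9%, and TATAA in 16%. A match of letters is a description of the window and not a shown binding site.

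The paralogs are hard to separate by reads. The coding sequences of Hba-a1 and Hba-a2 differ at 1 of 429 bases and those of Hbb-bs and Hbb-bt at 1 of 444, and the stretch around each difference is printed with the differing base in capitals. Positions are counted from 1 at the first base of the start codon.

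Hba-a1 coding bases 351 to 411: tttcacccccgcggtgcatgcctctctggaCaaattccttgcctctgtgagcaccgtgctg
Hba-a2 coding bases 351 to 411: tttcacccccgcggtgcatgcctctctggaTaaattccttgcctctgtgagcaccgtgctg
Hbb-bs coding bases 384 to 444: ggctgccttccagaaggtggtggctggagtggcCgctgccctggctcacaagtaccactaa
Hbb-bt coding bases 384 to 444: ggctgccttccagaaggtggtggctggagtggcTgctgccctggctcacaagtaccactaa

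The substitutions are C381T between Hba-a1 and Hba-a2 and C417T between Hbb-bs and Hbb-bt. Of all 100-base stretches of the GENCODE transcript, 56.5% of those in Hba-a1 and 74.5% of those in Hba-a2 stood unchanged in the other alpha globin, and 62.6% of those in Hbb-bs and 54.8% of those in Hbb-bt in the other beta globin. The sources used here give neither the read length nor the handling of reads that match several genes, so the split of reads within each pair is uncertain. Alas1 and Alas2 shared no stretch of 100 bases with any other gene, and their coding sequences were the same at 70.0% of 1734 aligned bases.

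Globin RNA was highest in Mut_AOO and lowest in Mut_H2O. The counts of Hba-a1 were 5560, 10864 and 5581 in Mut_AOO, 4412, 1626 and 5011 in Ctrl_AOO, 461 and 860 in Mut_H2O, and 1130 and 2405 in Ctrl_H2O. Hba-a2 had 446, 1037 and 466 in Mut_AOO, 388, 212 and 377 in Ctrl_AOO, 27.3 and 58.3 in Mut_H2O, and 105 and 236 in Ctrl_H2O. The alpha globin values of the 3 Mut_AOO libraries were above all 3 Ctrl_AOO libraries, and those of both Mut_H2O libraries were below both Ctrl_H2O libraries.

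The beta globins had the same order of groups. Hbb-bs had 7711, 14257.5 and 7806 in Mut_AOO, 6546, 2285 and 7319 in Ctrl_AOO, 629 and 1493 in Mut_H2O, and 1867 and 3597 in Ctrl_H2O. Hbb-bt had 548, 1155 and 646 in Mut_AOO, 407, 215 and 503 in Ctrl_AOO, 34.4 and 106 in Mut_H2O, and 147 and 207 in Ctrl_H2O. Mut_AOO library 2 was the highest of the 10 libraries and Mut_H2O library 1 the lowest for each of the 4 globins.

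Alas2, the erythroid enzyme, had 195, 309 and 237 in Mut_AOO, 168, 88.9 and 206 in Ctrl_AOO, 22.9 and 23.1 in Mut_H2O, and 53.53 and 60.99 in Ctrl_H2O. All 6 olive oil/acetone libraries were above all 4 water libraries, and both Mut_H2O libraries were below both Ctrl_H2O libraries, whereas Mut_AOO and Ctrl_AOO overlapped. The lowest values rested on 26 and 19 reads in the Mut_H2O libraries, so counting error is largest there.

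Alas1, the general enzyme, had 655, 1045 and 542 in Mut_AOO, 648, 495 and 486 in Ctrl_AOO, 622 and 544 in Mut_H2O, and 544 and 575 in Ctrl_H2O. Every pair of groups overlapped, and Mut_AOO library 2 stood above the other 9 libraries, which lay between 486 and 655. The highest library was 2.15 times the lowest for Alas1, against 13.5 times for Alas2, 23.6 times for Hba-a1 and 22.7 times for Hbb-bs.

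**Figure D1:**
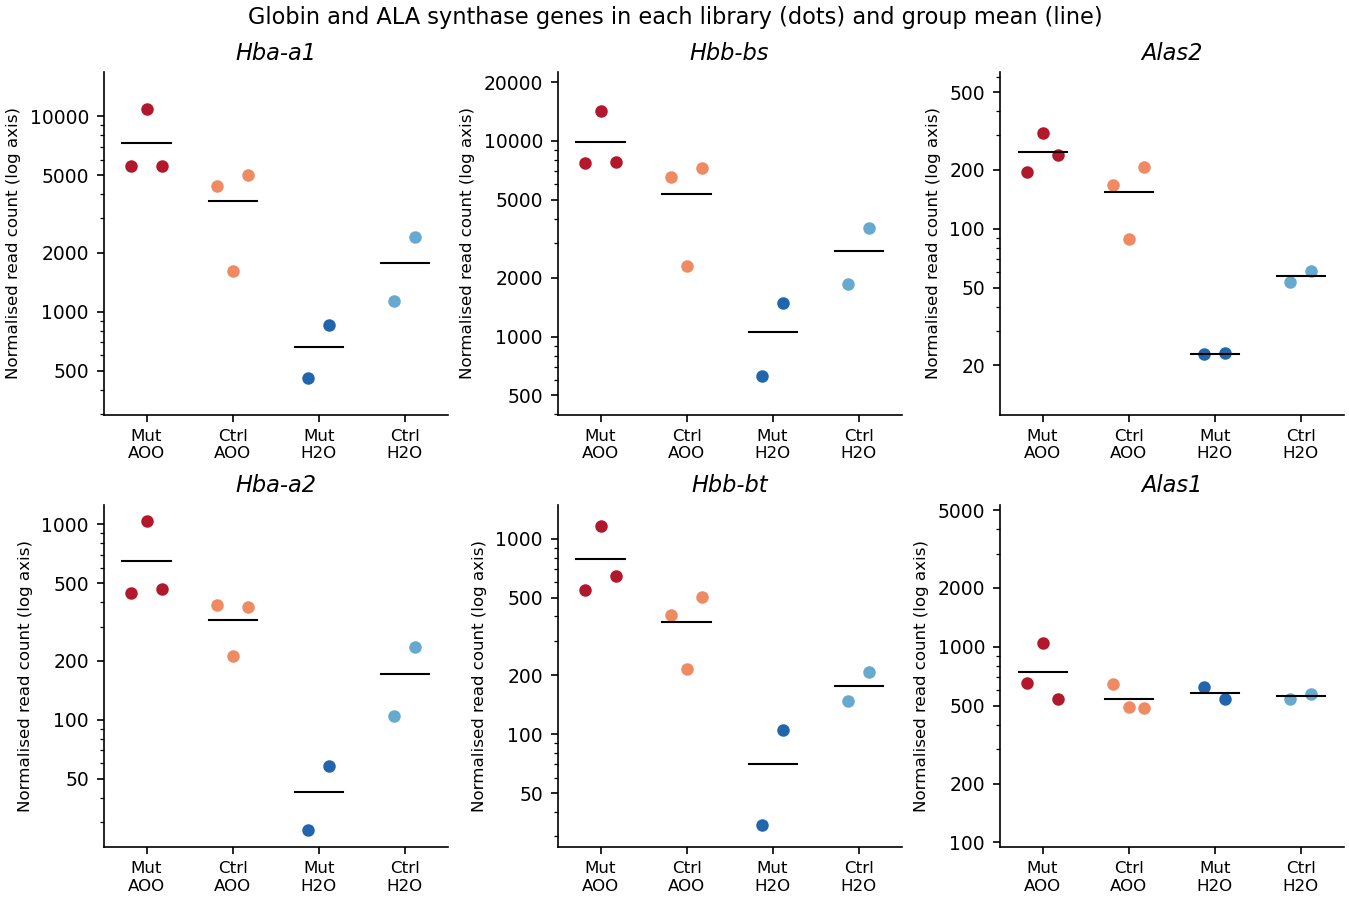
Normalised read count (log axis, the same span of fold in each panel) of the 6 genes in each library (dots) of Mut_AOO, Ctrl_AOO, Mut_H2O and Ctrl_H2O, with the group mean as a line. The globins and Alas2 are highest in Mut_AOO and lowest in Mut_H2O, while the Alas1 dots of all groups lie between 486 and 1045.

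Per kilobase of annotated exon, the mean normalised count in Mut_AOO was 12923 ± 4886 for Hbb-bs, 9033 ± 3764 for Hba-a1, 1114 ± 464 for Hbb-bt and 974 ± 503 for Hba-a2 (SD, n = 3). On the same scale Alas1 was at 121 ± 42.7 and Alas2 at 103 ± 23.9 in Mut_AOO. Hbb-bs and Hba-a1 did not differ beyond their spread, nor did Hbb-bt and Hba-a2, nor Alas1 and Alas2. In Ctrl_AOO the order of the means was the same, with Hbb-bs at 7010 ± 3530 and Hba-a1 at 4536 ± 2225 per kilobase (SD, n = 3). By the same exon lengths, Alas2 was at 9.57 ± 0.0488 and Alas1 at 94.5 ± 8.93 per kilobase in Mut_H2O (SD, n = 2). In Ctrl_H2O Alas2 was at 23.8 ± 2.19 and Alas1 at 90.6 ± 3.58 (SD, n = 2).

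The 4 globin genes together took 0.0745%, 0.152% and 0.0898% of reads in Mut_AOO, 0.0588%, 0.0237% and 0.0713% in Ctrl_AOO, 0.00599% and 0.0130% in Mut_H2O, and 0.0171% and 0.0361% in Ctrl_H2O. The exact 95% binomial interval was 0.1498% to 0.1532% for the highest library, Mut_AOO library 2, and 0.00567% to 0.00633% for the lowest, Mut_H2O library 1. Such intervals cover counting error only, since PCR copies are not independent molecules. The libraries of a group differed by far more than counting error, and in bulk RNA fewer erythroid cells and less globin RNA per cell cannot be told apart.

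The ratio of beta to alpha globin varied far less than the globin sum. The summed globin count was 23.7 times higher in the highest library than in the lowest, but the ratio of beta to alpha globin stayed between 1.30 and 1.74. It was 1.36 ± 0.0539 in Mut_AOO and 1.42 ± 0.0518 in Ctrl_AOO (SD, n = 3 each), and 1.36 and 1.74 in Mut_H2O and 1.63 and 1.44 in Ctrl_H2O. Alas2 stood at 9.17 to 20.5 counts per 1000 globin counts over the 10 libraries, and every pair of groups overlapped in this ratio. The span of that ratio, 2.23 times, was close to that of Alas1. Hba-a1 was 7.66 to 16.9 times Hba-a2 by count, and both Mut_H2O libraries (16.9 and 14.75) were above the other 8, which reached at most 13.3. The Mut_H2O ratios rested on 31 and 48 Hba-a2 reads, so counting error is largest there. Hbb-bs was 10.6 to 18.3 times Hbb-bt.

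The ratio of Alas2 to Alas1 counts, not corrected for length, was 0.298, 0.296 and 0.438 in Mut_AOO and 0.258, 0.180 and 0.423 in Ctrl_AOO. It was 0.0368 and 0.0424 in Mut_H2O, and 0.0984 and 0.106 in Ctrl_H2O. The ratio in all 6 olive oil/acetone libraries was above that in all 4 water libraries, and both Mut_H2O libraries were below both Ctrl_H2O libraries. Across the 10 libraries Pearson's r on the log2 scale was 0.997 between Hba-a1 and Hbb-bs, 0.952 to 0.964 between Alas2 and the globins, and 0.362 between Alas2 and Alas1. These coefficients describe libraries that share groups and scaling, and they carry no test.

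**Figure D2:**
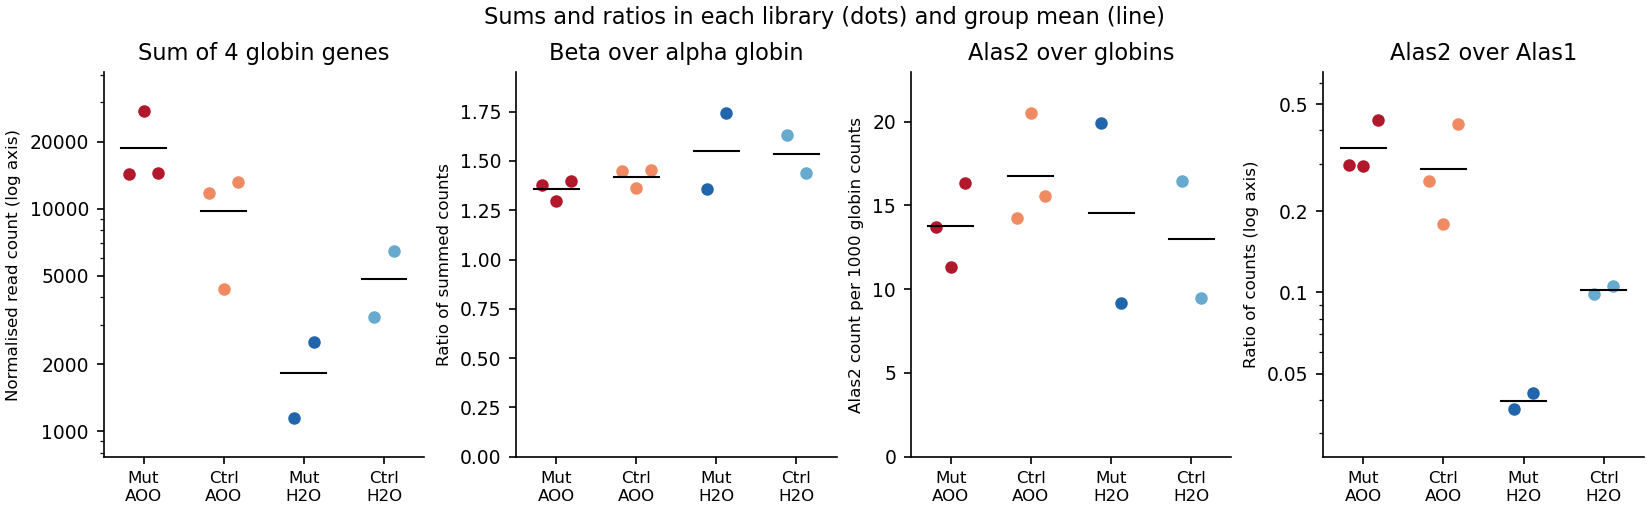
Sum of the 4 globin counts (log axis), ratio of beta to alpha globin, Alas2 counts per 1000 globin counts, and ratio of Alas2 to Alas1 (log axis) in each library (dots), with the group mean as a line. The globin sum spans 23.7 times while beta over alpha stays between 1.30 and 1.74, and Alas2 over Alas1 separates all olive oil/acetone libraries from all water libraries.

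Olive oil/acetone against water in Mut mice asks how knockout keratinocytes respond when the epidermal barrier is disrupted. The 4 globins and Alas2 rose, by 9.77- to 14.6-fold, and Alas1 was not called. The log2 difference was 3.46 ± 0.51 for Hba-a1, 3.87 ± 0.49 for Hba-a2, 3.29 ± 0.53 for Hbb-bs, 3.59 ± 0.50 for Hbb-bt and 3.34 ± 0.36 for Alas2 (± SE, on log2(value + 1)). The adjusted p from limma was 0.00976, 0.0061, 0.012, 0.00795 and 0.00252 in that order. For Alas1 the difference was 0.30 ± 0.26 (adjusted p = 0.419), with a 95% interval from -0.26 to 0.87 that lay wholly below the interval of Alas2, 2.55 to 4.13. Thus 5 of 6 genes were called, all higher, where limma called 13.4% of all 15958 genes tested in either direction, 6.74% as higher and 6.69% as lower. Because the 5 called genes rose and fell together over the libraries, they do not count as 5 separate results. The 5 genes did not overlap between Mut_AOO and Mut_H2O, which 28.9% of all genes did in the higher direction.

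These calls held under all 12 other ways of processing the values, edgeR and DESeq2 on recovered reads included, but not with either Mut_H2O library left out. The group is then 1 library that is assumed to vary like the others. Without Mut_H2O library 1 the adjusted p was 0.0518 for Alas2 and 0.0864 to 0.129 for the globins, with log2 differences of 2.66 to 3.33. Without Mut_H2O library 2 it was 0.0552 for Hba-a1 and Hbb-bs, and the calls on the other 3 genes held.

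In Ctrl mice the same treatment gave smaller differences and no call. The log2 difference was 1.33 ± 0.36 for Alas2 (adjusted p = 0.214), 1.00 for Hba-a1, 0.99 for Hba-a2, 0.88 for Hbb-bs and 1.01 for Hbb-bt (adjusted p from 0.424 to 0.515), and -0.06 for Alas1 (adjusted p = 0.942). limma called 0 of 6 genes, against 0.0627% of all genes in either direction and 0.0564% as higher. Before adjustment 1 of 6, Alas2, had p under 0.05; edgeR made no call, and DESeq2 made 1, Alas2 at an adjusted p of 0.0163. The Ctrl_AOO and Ctrl_H2O libraries overlapped for Hba-a1, Hba-a2 and Hbb-bs, and not for Alas2 and Hbb-bt, where 12.3% of all genes were higher without overlap. Ctrl_AOO library 2 was the low one of its group for all 4 globins and Alas2. Without the library that stood apart on the principal components, Ctrl_H2O library 2, the globin differences were 1.25 to 1.56 and Alas2 was at 1.42, and without Ctrl_H2O library 1 the globin differences were 0.41 to 0.76; no gene was called either way.

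Averaged over both genotypes, olive oil/acetone against water gave log2 differences of 2.33 ± 0.25 for Alas2 (adjusted p = 0.00163), 2.23 ± 0.36 for Hba-a1 (0.00838), 2.43 ± 0.34 for Hba-a2 (0.00519), 2.08 ± 0.38 for Hbb-bs (0.013) and 2.30 ± 0.35 for Hbb-bt (0.00689). Alas1 was at 0.12 ± 0.18 (adjusted p = 0.653). Here too 5 of 6 were called as higher, against 12.8% of all genes in either direction, 6.88% as higher and 5.92% as lower. Alas2 and Hbb-bt were above in all 6 olive oil/acetone libraries, as 4.51% of genes were, and the other globins overlapped through Ctrl_AOO library 2. The calls on Alas2, Hba-a2 and Hbb-bt held with each library left out in turn. Those on Hba-a1 and Hbb-bs did not without Mut_H2O library 1 (adjusted p = 0.0608 and 0.0748), and that on Hbb-bs did not without Ctrl_H2O library 1 (0.062).

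Mut against Ctrl asks what the loss of the gasdermins does under each treatment, and limma called no gene at all in either comparison. Under olive oil/acetone the log2 difference was 1.08 for Hba-a1, 0.93 for Hba-a2, 0.99 for Hbb-bs, 1.07 for Hbb-bt, 0.74 for Alas2 and 0.42 for Alas1 (adjusted p from limma 0.397 to 0.488). limma called 0 of 6 genes and 0.0% of all genes; 3 of 6 had an unadjusted p under 0.05, among 1908 genes in all, and neither edgeR nor DESeq2 called any of the 6. The 4 globins were higher in Mut_AOO without overlap, as were 8.57% of all genes. Without Ctrl_AOO library 2 the globin differences were 0.46 to 0.72 and Alas2 was at 0.39, and without Mut_AOO library 2 they were 0.53 to 0.75 and 0.56.

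Under water the differences ran the other way. The log2 difference was -1.39 for Hba-a1, -1.95 for Hba-a2, -1.42 for Hbb-bs, -1.52 for Hbb-bt and -1.28 for Alas2 (adjusted p = 0.964 each), and 0.06 for Alas1 (0.994). limma called 0 of 6 and 0.0% of all genes; 5 of 6 had an unadjusted p under 0.05, among 796 genes in all, and neither edgeR nor DESeq2 called any of the 6. The 4 globins and Alas2 were lower in Mut_H2O without overlap, as were 17.6% of all genes. With 1 library left out the difference ranged from -1.93 to -0.85 for Hba-a1, -2.54 to -1.38 for Hba-a2, -2.04 to -0.80 for Hbb-bs, -2.31 to -0.72 for Hbb-bt and -1.37 to -1.19 for Alas2, with no call. The globin differences were nearest 0 without Ctrl_H2O library 2 (Hba-a1 and Hba-a2) or Mut_H2O library 1 (Hbb-bs and Hbb-bt), and farthest from 0 without Ctrl_H2O library 1 (Hba-a1 and Hba-a2) or Mut_H2O library 2 (Hbb-bs and Hbb-bt).

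The interaction, the treatment difference in Mut minus that in Ctrl, was 2.46 ± 0.73 for Hba-a1, 2.88 for Hba-a2, 2.41 for Hbb-bs, 2.59 for Hbb-bt and 2.01 ± 0.50 for Alas2 (log2, adjusted p = 0.356 each), and 0.36 for Alas1 (0.666). limma called 0 of 6 and 0.0% of all genes; 5 of 6 had an unadjusted p under 0.05, among 1897 genes in all, and edgeR called none. DESeq2 called 4 of 6, Alas2 (adjusted p = 0.0381), Hba-a1 (0.0453), Hba-a2 (0.00672) and Hbb-bt (0.0416). With 1 library left out it ranged from 1.92 to 3.01 for Hba-a1, 2.31 to 3.46 for Hba-a2, 1.78 to 3.03 for Hbb-bs, 1.79 to 3.39 for Hbb-bt and 1.66 to 2.26 for Alas2, with no call by limma. The lowest globin values came without Mut_H2O library 1 or Ctrl_H2O library 2, and the highest without Mut_H2O library 2 or Ctrl_H2O library 1. The larger difference in Mut is therefore not shown by limma or edgeR to differ from that in Ctrl. All 4 globins had every Mut library above Ctrl under olive oil/acetone and below it under water, as 2.14% of all genes had.

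**Figure D3:**
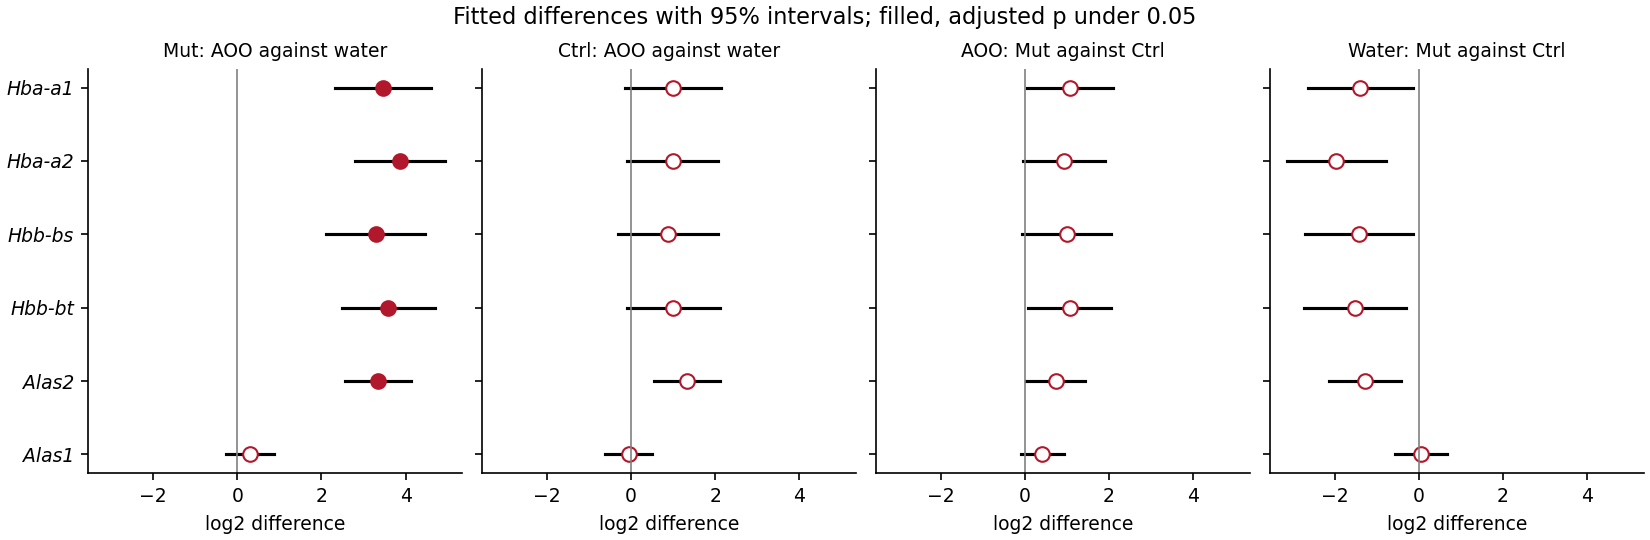
Fitted log2 differences (dots) with 95% intervals (lines) of the 6 genes for olive oil/acetone against water in Mut and in Ctrl, and for Mut against Ctrl under olive oil/acetone and under water. Filled dots have an adjusted p under 0.05, which the globins and Alas2 reach only for olive oil/acetone against water in Mut (3.29 to 3.87).

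After the first step, heme is made by a chain of further enzymes, of which 6 are described: Alad, Uros and Urod of the cytosol, then Cpox, Ppox and Fech of the mitochondrion, where Fech inserts the iron. None of the 6 was called in Mut by limma, edgeR or DESeq2, and 2 had an unadjusted p under 0.05. All 6 log2 differences were above 0 in Mut, with a median of 0.29, against 0.01 over all genes. The summed count of the 6 was 4444 to 5257 in Mut_AOO and 4561 to 5152 in Ctrl_AOO, and 4000 to 4123 in Mut_H2O and 4023 to 4265 in Ctrl_H2O.

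Uros, which closes the ring, was at 0.78 in Mut (adjusted p = 0.0954), Alad at 0.57, Urod at 0.39, Fech at 0.19, Ppox at 0.14 and Cpox at 0.09 on the log2 scale. Cpox was the highest of the 6 by count, with 1912 to 2812.5 in Mut_AOO, 2370 to 2555 in Ctrl_AOO, 2011 to 2104 in Mut_H2O and 1945 to 2011 in Ctrl_H2O. In Ctrl neither limma, edgeR nor DESeq2 called any of the 6, and 0 had an unadjusted p under 0.05. Averaged over genotypes the median of the 6 was 0.24, with no call by the same tools and 2 genes with p under 0.05 before adjustment.

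**Figure D4:**
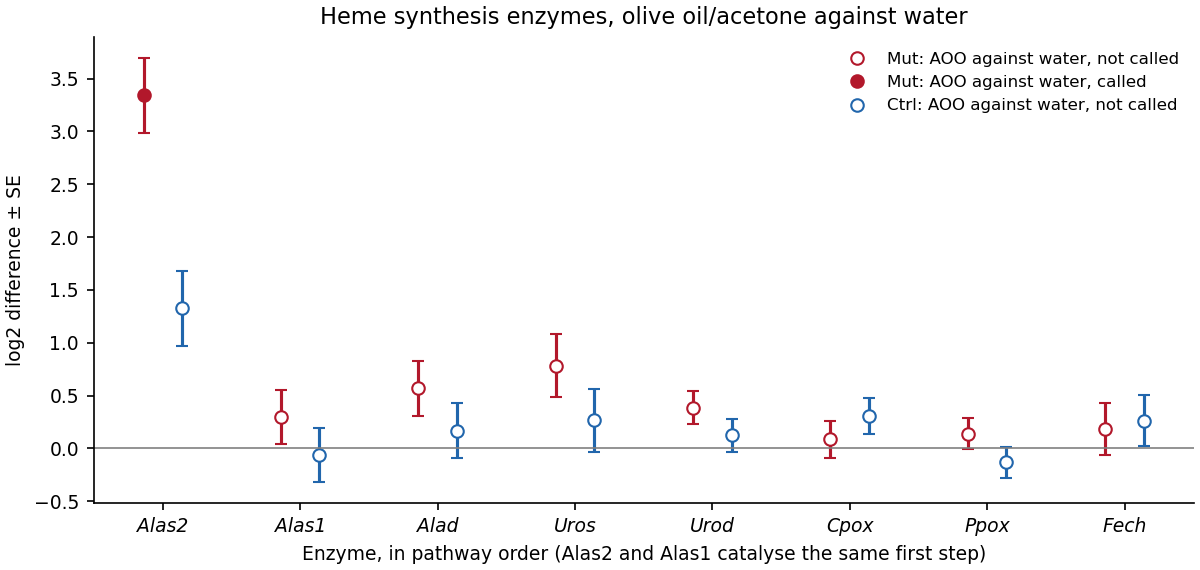
Log2 difference ± SE for olive oil/acetone against water in Mut and in Ctrl for Alas2, Alas1 and 6 later enzymes of heme synthesis, in pathway order, with filled dots for an adjusted p under 0.05. Alas2 at 3.34 in Mut is the filled one, and the 6 later enzymes lie between 0.09 and 0.78 in Mut.

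Of 12 genes of heme and iron transport, most of them mitochondrial, 1 rose and 1 fell in Mut, a share near the 13.4% called among all genes. Slc25a39, the mitochondrial glutathione carrier, had 1447 to 1725 in Mut_AOO and 973 to 1027 in Mut_H2O, a log2 difference of 0.67 ± 0.16 (adjusted p = 0.0279). Flvcr1, a choline carrier also described as a heme exporter, had the highest mean of the list and fell, with 447 to 1084 in Mut_AOO and 3327 to 3461 in Mut_H2O (-2.43 ± 0.43, adjusted p = 0.0146). In Ctrl, Flvcr1 had 1307 to 2317 in Ctrl_AOO and 1554 to 3823 in Ctrl_H2O and was not called (-0.55, adjusted p = 0.614).

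Of 5 genes of heme breakdown tested, 1 rose in Mut, Cd163, the macrophage receptor for hemoglobin bound to haptoglobin. It had 24.4 to 42.6 in Mut_AOO and 8.50 to 11.5 in Mut_H2O (log2 difference 1.64 ± 0.47, adjusted p from limma 0.0446). edgeR did not call it, and the limma call was lost without the mean-variance trend and with the replicate number as a block. Hmox1, the heme oxygenase induced by heme, had the highest mean and was at 0.22 in Mut (adjusted p = 0.669) and 0.29 in Ctrl. Of 12 genes of iron uptake and storage, Ncoa4, the receptor for breakdown of ferritin, fell in Mut (-0.77 ± 0.18, adjusted p = 0.0265). Averaged over genotypes Ncoa4 and the ferritin light chain Ftl1 fell (-0.46 and -0.64, adjusted p = 0.0409 and 0.0344), while the ferritin heavy chain Fth1, the highest of the list, was at -0.44 (0.0534).

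Of 24 genes of red cell membrane and enzymes looked up, 17 were listed in a library and 13 of these were tested. Among these 13, limma called 1 in Mut, which fell, and the median was -0.22. The log2 difference was above 0 for 6 and below 0 for 7. edgeR called 1 and DESeq2 4 of the 13, and 6 had an unadjusted p under 0.05 in limma. Of those, Aqp1 (3.06), Car2 (2.02) and Acp5 (0.63) were above 0, and Hemgn (-2.09), Sptb and Ermap (-0.81) were below. Sptb, beta spectrin, fell in Mut, with 86.5 to 139 in Mut_AOO and 248 to 409 in Mut_H2O (-1.53 ± 0.42, adjusted p = 0.0405). Averaged over genotypes Acp5 rose (0.60, adjusted p = 0.0288), and Hemgn, an erythroid nuclear protein, and Sptb fell (-2.32 and -1.14, adjusted p = 0.0156 and 0.0365). The list's most abundant gene, the glucose carrier Slc2a1, was at -0.47 in Mut (0.491), and the membrane genes Epb42, Rhag and Rhd were listed in the water libraries, with at most 9.72 there, and were not analysed here in the others.

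Of 11 erythroid regulators looked up, transcription regulators and the erythropoietin receptor Epor, 8 were listed in a library and 7 of these were tested. None of the 7 was called in Mut by limma, edgeR or DESeq2, and 1 had an unadjusted p under 0.05. Klf1, the regulator of adult beta globin and named here for that role after its values were seen, had 10.4 to 13.5 in Mut_AOO, 8.98 to 17.2 in Ctrl_AOO, 8.50 to 11.5 in Mut_H2O and 10.3 to 10.5 in Ctrl_H2O. That range overlapped in all 4 groups, and the log2 difference was 0.25 in Mut and 0.30 in Ctrl. Ldb1, a GATA1 partner made in many tissues, had the highest mean, 5085 to 5220 in Mut_AOO and 5370 to 5467 in Mut_H2O. Gata1 and Tal1 were looked up and were listed in no library, and Slc4a1 was not analysed here. Cygb, a globin of fibroblasts and other cells that is not part of hemoglobin, had 51.7 to 57.1 in Mut_AOO, 49.7 to 119 in Ctrl_AOO, 58.3 to 67.9 in Mut_H2O and 72.7 to 75.1 in Ctrl_H2O, with a log2 difference of -0.20 in Mut (adjusted p = 0.72).

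Markers of vessels and blood moved in part with the globins, and their part in the result was not tested. Of 13 endothelial markers limma called 5 as higher in Mut, where it called 6.74% of all genes as higher. They were Plvap (log2 difference 2.87), Tie1 (2.78), Egfl7 (2.38), Vwf (1.98) and Pecam1 (1.74), with adjusted p from 0.0235 to 0.0439. edgeR called 3 of them, Plvap, Tie1 and Egfl7. All 13 differences were above 0 in Mut, with a median of 1.98, against 0.01 over all genes. In Ctrl 11 of 13 were below 0, with a median of -0.53. There limma, edgeR and DESeq2 made no call, and 2 had an unadjusted p under 0.05. The summed endothelial count was 1134 to 1662 in Mut_AOO, 333 to 627 in Ctrl_AOO, 276 to 722 in Mut_H2O and 521 to 845 in Ctrl_H2O, so Mut_AOO stood above the other 3 groups. The endothelial sums of Ctrl_AOO overlapped those of Ctrl_H2O and were lower on average (475 and 683).

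Of 3 platelet markers tested Pf4 rose in Mut, with 8.11 to 14.5 in Mut_AOO and 0.881 to 1.21 in Mut_H2O, which is 1 read in each Mut_H2O library (2.42 ± 0.64, adjusted p = 0.0374), and the most abundant, Itga2b, was at -0.12 (0.747). DESeq2 called none of the 3, and the limma call on Pf4 was lost with a pseudocount of 8. The sum of the 3 was 122 to 142 in Mut_AOO, 113 to 164 in Ctrl_AOO, 137 to 139 in Mut_H2O and 122 to 140 in Ctrl_H2O. The 6 neutrophil markers summed to 194 to 1588 in Mut_AOO, 174 to 869 in Ctrl_AOO, 112 to 219 in Mut_H2O and 141 to 1162 in Ctrl_H2O, and the most abundant, S100a9, a granulocyte protein also made by stressed keratinocytes, was at 4.53 in Mut without a call (adjusted p = 0.0711). None of the 6 was called in Mut by limma or edgeR, 3 were by DESeq2, and 3 had an unadjusted p under 0.05. Averaged over genotypes Cxcr2 rose and Mmp9 fell (2.80 and -1.15, adjusted p from limma 0.0498 and 0.0371). Neither call held without the mean-variance trend, and that on Cxcr2 was also lost with a pseudocount of 0.5 and in edgeR.

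Dermal fibroblast markers did not rise with the globins. Their sum over 7 genes was 2442 to 5860 in Mut_AOO, 4652 to 6613 in Ctrl_AOO, 4946 to 7935 in Mut_H2O and 3469 to 11084 in Ctrl_H2O, and 1 of 7, Lum, was called in Mut and fell (-3.02, adjusted p = 0.0379), while Col3a1, the highest, was at -0.76. The 9 skeletal muscle markers summed to 244 to 332 in Mut_AOO, 221 to 290 in Ctrl_AOO, 296 to 340 in Mut_H2O and 478 to 1075 in Ctrl_H2O. Averaged over genotypes Acta1, Tnnt3 and Ckm fell (-1.15, -1.46 and -1.53, adjusted p from limma 0.0377, 0.0355 and 0.0491). The 9 hair markers summed to 322 to 2587 in Mut_AOO, 157 to 230 in Ctrl_AOO, 197 to 216 in Mut_H2O and 129 to 11554 in Ctrl_H2O, with Tchh, the most abundant, at 1.16 in Mut (adjusted p = 0.481). All 9 were above 0 in Mut and below 0 in Ctrl; limma and edgeR made no call in either, DESeq2 made 2 calls in Mut and 5 in Ctrl, and 1 gene in each had p under 0.05 before adjustment. Of 8 keratinocyte markers the suprabasal keratin Krt1 rose in Mut (1.92, adjusted p = 0.0164), and the basal genes Krt15 and Trp63 fell (-0.91 and -0.99, adjusted p = 0.0219 and 0.0290), with Krt5 at 0.03.

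**Figure D5:**
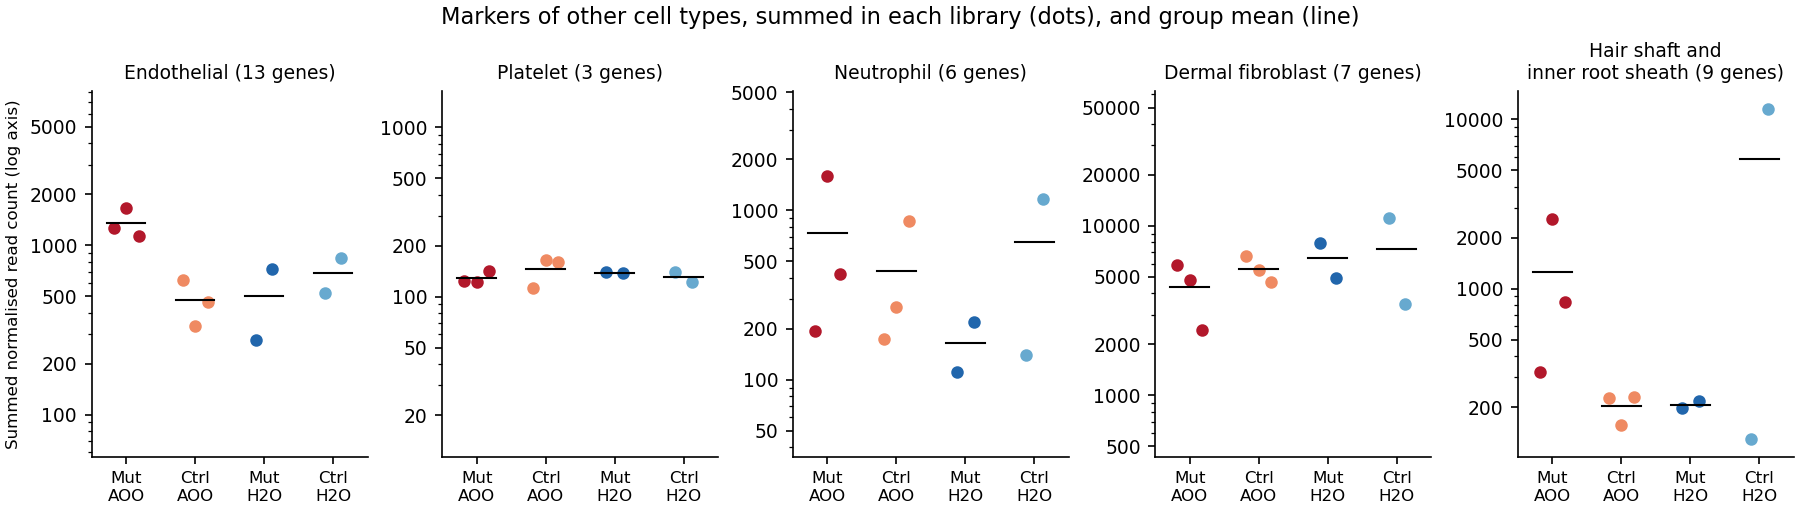
Summed normalised read count (log axis) of endothelial (13 genes), platelet (3), neutrophil (6), dermal fibroblast (7) and hair (9) markers in each library (dots), with the group mean as a line. The endothelial sum is highest in Mut_AOO (1134 to 1662), and the hair sum of 1 Ctrl_H2O library is 11554.

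Over all genes limma called 13.4% in Mut and 12.8% averaged over genotypes, in either direction. A single call in a short list is therefore no result about that list. Calls on these lists often rested on single libraries. Without Mut_H2O library 1 none of the 15 genes called in Mut held its call, without Mut_H2O library 2 Plvap and Tie1 did, without Mut_AOO library 2 Flvcr1 and Krt1 did, without Mut_AOO library 3 Krt1 did, and without Ctrl_AOO library 2 a total of 6 did. In limma without the mean-variance trend 5 of the 15 held, and in edgeR 12. Of 16 list genes called in the average over genotypes, Krt1 alone held without Mut_H2O library 1 and alone without Mut_H2O library 2. Hemgn and Krt1 held without Ctrl_AOO library 2, Krt1 and Mmp9 without Ctrl_H2O library 1, 4 without Mut_AOO library 2, 4 without Ctrl_AOO library 3, 5 without Mut_AOO library 3, and 4 in limma without the trend.

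The 5 genes whose profile over the 10 libraries was most like the mean standardised profile of Alas2 and the 4 globins, among 11950 genes with a mean of 50 or more, were Rwdd1 (Pearson's r = 0.973), Zfp692, Gadd45gip1, Adck1 and Ptcd2 (0.962). Rwdd1 had 523, 515 and 483 in Mut_AOO, 431, 400 and 470 in Ctrl_AOO, 294 and 333 in Mut_H2O, and 351 and 419 in Ctrl_H2O, a far narrower span than the globins. Within the 6 olive oil/acetone libraries the r of these 5 genes was 0.857 to 0.929. Those most like Alas1 were Cebpb (0.966), Dohh, Rars, Prrc1 and Ap3s1 (0.922). Cebpb, a transcription factor gene, had 3697, 6541 and 3325 in Mut_AOO, 3475, 2880 and 3117 in Ctrl_AOO, 3385 and 3263 in Mut_H2O, and 3267 and 3340 in Ctrl_H2O, with Mut_AOO library 2 the highest as for Alas1. These genes were picked for likeness, so their r carries no test.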

How the data were processed

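The deposited values are read counts per gene divided by a size factor of each library (a signal with no unit), as the values show. Per the submitters' processing notes, the authors used Trimmomatic 0.38, featureCounts 2.0.0 and DESeq2 1.26.0 with GRCm38 (aligner, annotation release and strandedness: not given in the sources used here). Whole reads were recovered for all values (tolerance 0.1 read). Values were rescaled by median of ratios (factors 1.00 to 1.01) for the fits. Genes listed in all 10 libraries with 10 or more in at least 2 were tested, 15958 in all. The test was limma 3.58.1 in R 4.3.3 on log2(value + 1), with 4 group means, a mean-variance trend, 6 residual degrees of freedom and Benjamini-Hochberg adjustment over all tested genes at 0.05; it was tested on simulated data. Fold changes on this scale understate those of low genes. edgeR 4.0.16 and DESeq2 1.42.0 on recovered reads, other pseudocounts, filters, scalings and models, and leaving out each library were alternatives. The members and lists were chosen with earlier results of these data known. The text names the 6 genes, 6 later heme enzymes, up to 4 called genes and the most abundant gene of each other list, and the 5 genes most like each of the profiles. A few further genes are named where their list is described. Promoter sequences are from RefSeq, and gene places and coding sequences from GENCODE. A few genes of these lists are not reported here.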

Additional observations from a re-analysis of the deposited data

Results flagged for a closer look

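The 4 globin genes ran in opposite directions in the genotypes' comparison under the 2 treatments. Every Mut_AOO library was above every Ctrl_AOO library, and every Mut_H2O library was below every Ctrl_H2O library. The interaction on the log2 scale was 2.46 for Hba-a1, 2.88 for Hba-a2, 2.41 for Hbb-bs and 2.59 for Hbb-bt, and it missed the threshold in limma (adjusted p = 0.356 each). With 1 library left out it was between 1.78 (Hbb-bs, without Mut_H2O library 1) and 3.46 (Hba-a2, without Ctrl_H2O library 1). Of all tested genes, 2.14% had the same arrangement of libraries. DESeq2 called Hba-a1, Hba-a2 and Hbb-bt (adjusted p = 0.0453, 0.00672 and 0.0416) and not Hbb-bs (0.0783), and edgeR called none. The endothelial sum was also highest in Mut_AOO, and its part in the result was not tested.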

How the results depend on the processing

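The calls on Alas2 and the 4 globins in Mut and averaged over genotypes held under every other processing, and those lost when a library was left out stand beside the results. The count of genes called in Mut, 2142, was 3834 with only Mut_AOO and Mut_H2O fitted, 3908 with genes listed in both groups, 803 without the trend, 3626 in DESeq2, and 9 to 3142 with 1 library left out: 9 without Mut_H2O library 1, 35 without Mut_H2O library 2, 239 without Mut_AOO library 3, 424 without Mut_AOO library 2 and 839 without Ctrl_AOO library 2. With equal totals its split was 1346 higher and 845 lower, against 1075 and 1067. In Ctrl, 10 genes became 354 in DESeq2 and 6 to 470 with 1 library left out. Averaged, 2043 became 817 without the trend, 3666 in DESeq2 and 164 to 4159 with 1 library left out. Mut against Ctrl had 0, which became 3, 2 and 168 under olive oil/acetone with only those groups, with genes listed in both groups and in DESeq2, and 6 in DESeq2 under water; the ranges with 1 library left out were 0 to 51 and 0 to 1. The interaction had 0, 196 in DESeq2 and 0 to 74 with 1 library left out. Among the 6 genes, DESeq2 alone called Alas2 in Ctrl (1.42) and 4 interactions.

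Correlations of same-numbered libraries were -0.105 to 0.451, with 6 of 13 over 0.1. Libraries with different numbers were not compared, so these values cannot decide whether replicate numbers pair the libraries. With the replicate number as a block, 2766 genes were called in Mut, 58 in Ctrl and 1926 averaged, and no call on the 6 genes changed. Alas1, never called, changed sign in Ctrl with the block (0.0779) and without Ctrl_AOO library 2 or 3 (0.0014 and 0.0124), averaged without Mut_AOO library 2 (-0.0126), and between genotypes under water with equal totals (-0.011) or without Mut_H2O library 1 (-0.0397). With 1 library left out its range was -0.1951 to 0.0124 in Ctrl, -0.0126 to 0.2218 averaged and -0.0397 to 0.1523 between genotypes under water. The cause of these changes was not tested. Fits with only the compared groups could not be run for the average and the interaction, which use all groups.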
